A study of Homo sapiens with 12 samples.

Results

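NRF2 antioxidant genes were examined in oral squamous cell carcinoma (OSCC) cells after silencing of FAT1. The set held the 9 gene symbols NFE2L2, KEAP1, GCLC, GCLM, SLC7A11, TXNRD1, SRXN1, NQO1 and HMOX1. They were chosen by name, and all 9 were found among the 19225 entries of the count table. All 9 also passed the filter on low counts, as did 13887 entries in all.

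HN6 and HN30 are established OSCC cell lines. Cells of each line received a scrambled siRNA (NC) or 1 of a pair of siRNAs against FAT1 (siFAT1-1 or siFAT1-2) with Lipofectamine RNAiMAX, and poly(A) RNA was sequenced 24 h later. The 6 conditions were HN6 NC, HN6 siFAT1-1, HN6 siFAT1-2, HN30 NC, HN30 siFAT1-1 and HN30 siFAT1-2, with 2 biological repeats of each, and libraries of both FAT1 siRNAs together are called knockdown (KD). Every library, NC included, came from transfected cells, so no untransfected level was compared. Each line stands for 1 tumor model, and the siRNA groups are transient transfections and not clones. The sample labels write the siRNA groups as FAT1-sh1 and FAT1-sh2.

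NRF2, the product of NFE2L2, is the transcription factor that drives genes of antioxidant and detoxification metabolism. KEAP1 binds NRF2 in the cytoplasm and hands it to a CUL3 ubiquitin ligase, which keeps NRF2 low until oxidants or electrophiles modify KEAP1 and NRF2 reaches the nucleus. There NRF2 pairs with small MAF proteins on antioxidant response elements. In squamous carcinomas, mutations of NFE2L2, KEAP1 or CUL3 are a known route to constant activity of the pathway. Since control of NRF2 is largely at the level of protein stability, NFE2L2 mRNA is not a measure of NRF2 activity.

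The core of the antioxidant response element, TGACNNNGC, was searched on both strands in 300 bases around each start site of the members (250 bases before to 50 after) and in the 300 bases before that window. RefSeq promoters on GRCh38.p14 were at hand for 7 of the 9 members, with HMOX1 and SLC7A11 not analysed here. Of all promoter windows 13.3% held the core, and of the windows before them 10.3% did. The core is the known docking sequence of NRF2. Matches are shown for NQO1, TXNRD1, GCLM and KEAP1, the members that held any, whatever their levels in the results. Each stretch is read along the strand of its gene, with the 9 bases of the match, or of its reverse complement, in capitals.

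NQO1, 455 to 447 bases before the start site, chr16:69726997-69727025, minus strand: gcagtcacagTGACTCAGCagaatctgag
TXNRD1, first start site, 99 to 91 bases before it, chr12:104215670-104215698, plus strand: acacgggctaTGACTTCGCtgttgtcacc
TXNRD1, second start site, 102 to 94 bases before it, chr12:104286920-104286948, plus strand: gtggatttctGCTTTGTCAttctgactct
GCLM, 34 to 26 bases before the start site, chr1:93909446-93909474, minus strand: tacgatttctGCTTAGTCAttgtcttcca
KEAP1, second start site, 31 to 23 bases before it, chr19:10502784-10502812, minus strand: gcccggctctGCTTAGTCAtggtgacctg

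The reverse-complement cores of GCLM and KEAP1 had the same 9 letters. TXNRD1 and KEAP1 each held a further match, at the first start site of TXNRD1 and the second of KEAP1. The windows of NFE2L2, SRXN1 and GCLC held none, nor did those of the first start site of KEAP1. These matches describe the letters only, since binding of NRF2 was not measured.

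Total counts ran from 26430049 to 47639010 per library, and the lowest count of any member in any library was 145, for SLC7A11. Levels are given as CPM, counts scaled to the library size, after TMM normalization. FAT1, the targeted gene, was at 56.8 and 66.7 CPM in HN6 NC, at 7.61 and 13.5 CPM with siFAT1-1 and at 13.2 and 21.4 CPM with siFAT1-2. In HN30, FAT1 was at 13.6 and 14.7 CPM in NC, at 4.86 and 6.26 CPM with siFAT1-1 and at 10.8 and 7.74 CPM with siFAT1-2. No KD library reached the NC libraries of its line, and the mean that remained was 17.1% and 28.0% of NC in HN6 and 39.3% and 65.4% in HN30, for siFAT1-1 and siFAT1-2. Of 8 squamous epithelial markers 7 had a median of at least 1 CPM, with KRT14 at a median of 0.148 CPM and the list summing to 1450 to 5211 CPM per library. Of 5 fibroblast markers 2 had such a median, COL1A1 (51.8 CPM, up to 146 CPM) and LUM (1.42 CPM, up to 13.7 CPM), with COL1A2 and PDGFRA at a median of 0 and a sum of 11.8 to 160 CPM. Of 4 leukocyte markers 1 did, CD14 (4.20 CPM, up to 15.0 CPM), with a sum of 2.12 to 15.0 CPM, and PTPRC was at a median of 0. Of 3 endothelial markers 0 did, with a sum of 0.202 to 7.87 CPM, CDH5 at up to 6.53 CPM and PECAM1 at up to 0.307 CPM. The part of these markers in the results was not tested. The libraries of HN6 NC were the least alike of all repeats, with a correlation of log2 CPM across genes of 0.942 against up to 0.990 in HN30 siFAT1-1.

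The position of each gene follows GENCODE 44 on GRCh38. NFE2L2 (ENSG00000116044) lies on chromosome 2 from 177218667 to 177392756, KEAP1 (ENSG00000079999) on chromosome 19 from 10486125 to 10503558, and GCLC (ENSG00000001084) on chromosome 6 from 53497341 to 53616970, all on the minus strand. GCLM (ENSG00000023909) lies on chromosome 1 from 93885199 to 93909456 and SLC7A11 (ENSG00000151012) on chromosome 4 from 138164097 to 138242349, both on the minus strand. TXNRD1 (ENSG00000198431) lies on the plus strand of chromosome 12 from 104215779 to 104350307. SRXN1 (ENSG00000271303) spans 646615 to 653200 of chromosome 20 and NQO1 (ENSG00000181019) 69706996 to 69726668 of chromosome 16, on the minus strand. HMOX1 (ENSG00000100292) spans 35380361 to 35394214 of chromosome 22 on the plus strand.

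Between genes, levels were compared as CPM per kb of the MANE Select transcript, the reference transcript of each gene. In both lines TXNRD1 and NQO1 stood first and SLC7A11 last. In HN6 the median over 6 libraries was 313 CPM per kb for TXNRD1, 152 for NQO1, 48.1 for SRXN1, 45.0 for NFE2L2, 27.5 for KEAP1, 18.8 for GCLC, 15.0 for GCLM, 14.7 for HMOX1 and 3.13 for SLC7A11. In HN30 it was 131 CPM per kb for TXNRD1, 81.4 for NQO1, 64.9 for SRXN1, 36.0 for KEAP1, 29.6 for NFE2L2, 10.4 for HMOX1, 9.52 for GCLC, 8.73 for GCLM and 2.57 for SLC7A11. The ranges of neighbours in this order overlapped for 6 of the 8 neighbour pairs in HN6, the exceptions being NQO1 over SRXN1 and KEAP1 over GCLC. In HN30 the ranges of TXNRD1 over NQO1, SRXN1 over KEAP1, NFE2L2 over HMOX1 and GCLM over SLC7A11 did not overlap. With the length of all annotated exons in place of the transcript, NFE2L2 moved to rank 8 in HN6 and rank 7 in HN30, while TXNRD1, NQO1 and SRXN1 kept the first ranks and SLC7A11 the last.

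**Figure D1:**
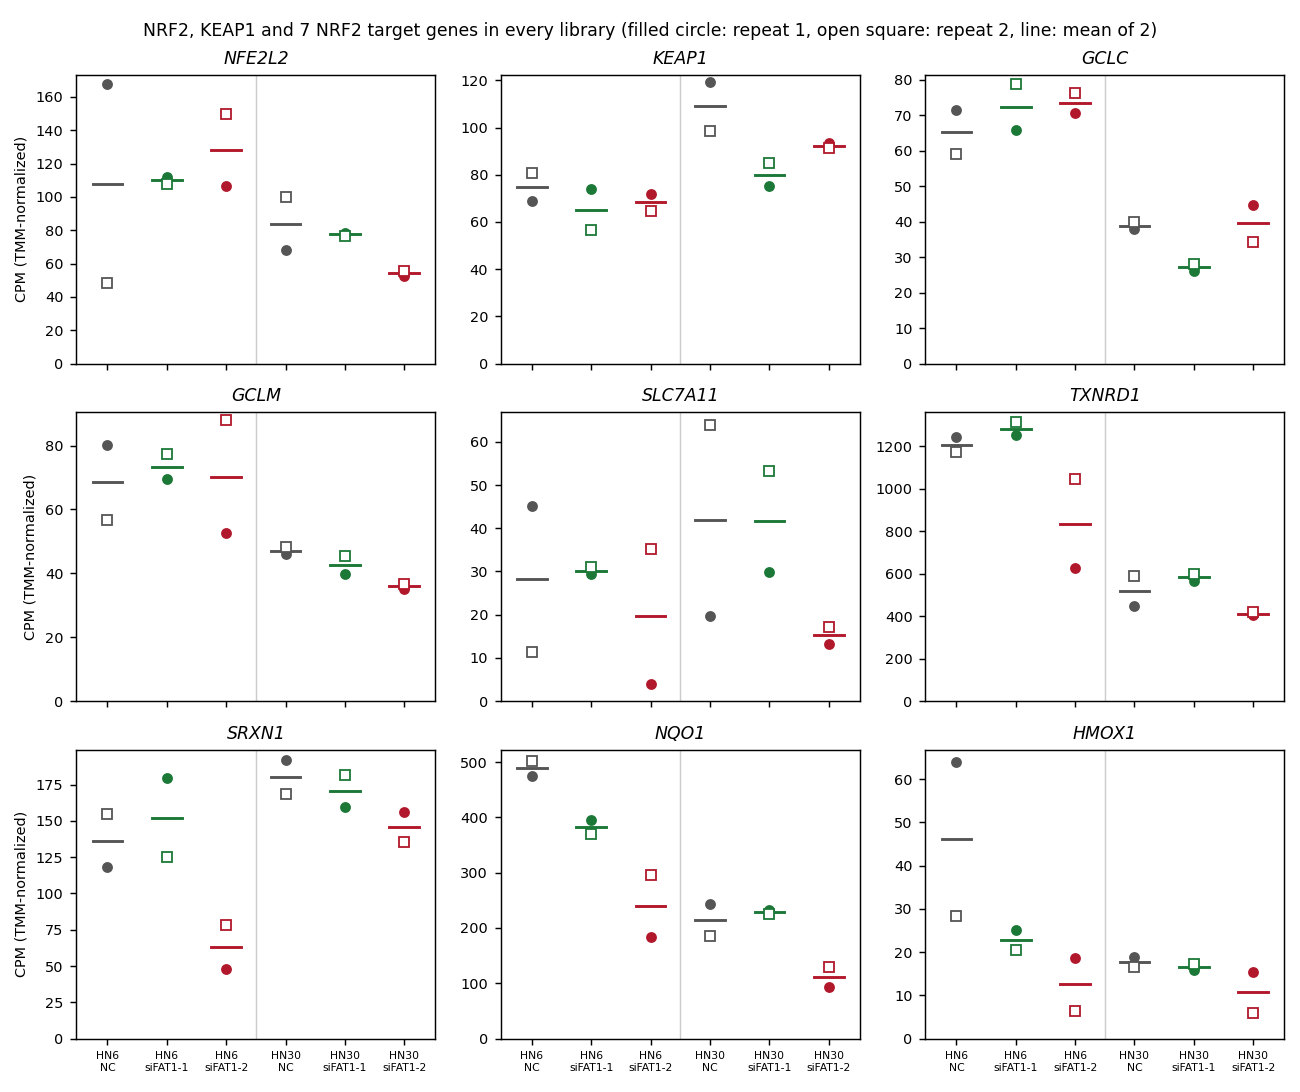
TMM-normalized CPM (vertical axes, each from 0) of the 9 genes in the 6 conditions (horizontal axis), with filled circles for repeat 1, open squares for repeat 2 and a line at the mean of 2. NQO1 was lower with siFAT1-2 than with NC in both lines, while the repeats of NFE2L2 and SLC7A11 in HN6 NC lay far apart.

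The first question was whether silencing FAT1 with either siRNA changed the NRF2 genes. Over both lines, 0 of the 9 members passed an adjusted p under 0.05 in edgeR for KD against NC, where 0.547% of all genes tested did. limma-voom and the DESeq2 Wald test also called 0 members. All 9 point estimates were below 0, with a median log2 fold change of -0.25 beside 0.02 for all genes, of which 48.0% were below 0. With 1 library left out, 6 to 9 of them were below 0. Against NC, 6 of 9 were below 0 with siFAT1-1 (median -0.05) and 8 of 9 with siFAT1-2 (median -0.43). Of all genes 50.4% and 50.3% were. At an unadjusted P under 0.05, 1 of 9 was lower, HMOX1, beside 7.75% of all genes. With an absolute log2 fold change above 1 as a further condition, the study's own thresholds, 0 of 9 were called, beside 3.07% of all genes. None of the 9 had all 8 KD libraries below both NC libraries of their line, as 3.15% of all genes had. In bulk RNA, fewer cells with a transcript and less of it per cell cannot be told apart.

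The regulators were examined first. NFE2L2 in HN6 was at 167.5 and 48.4 CPM in NC, at 112 and 108 CPM with siFAT1-1 and at 107 and 150 CPM with siFAT1-2. In HN30 it was at 68.3 and 99.7 CPM in NC, at 78.5 and 76.7 CPM with siFAT1-1 and at 52.7 and 55.7 CPM with siFAT1-2. The NC libraries of HN6 held both the highest and the lowest NFE2L2 level of the series, a ratio of 3.46, and all 4 KD libraries of HN6 lay between them. In HN30 both siFAT1-2 libraries were below both NC libraries. For this and the genes below, the share of all genes set apart within a single line was not counted. Such separations describe the libraries only. The log2 fold change for KD against NC was -0.11 ± 0.28 (SE; edgeR adjusted p = 0.882), and it was 0.15 without HN6 NC repeat 1 and 0.07 without HN30 NC repeat 2.

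KEAP1 in HN6 was at 68.8 and 80.6 CPM in NC, at 73.9 and 56.5 CPM with siFAT1-1 and at 72.0 and 64.6 CPM with siFAT1-2. The HN30 levels were 119 and 98.6 CPM in NC, at 75.3 and 84.8 CPM with siFAT1-1 and at 93.4 and 91.2 CPM with siFAT1-2. The groups overlapped in HN6, whereas all 4 KD libraries lay below both NC libraries in HN30. Neither KD against NC (-0.25 ± 0.14, adjusted p = 0.424) nor siFAT1-1 against NC (-0.32 ± 0.14, adjusted p = 0.254) passed the test.

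GCLC and GCLM encode the catalytic and modifier subunits of glutamate-cysteine ligase, which makes the first bond of glutathione. In HN6, GCLC was at 71.5 and 59.1 CPM in NC, at 65.8 and 78.8 CPM with siFAT1-1 and at 70.7 and 76.4 CPM with siFAT1-2. In HN30 it was at 37.8 and 40.0 CPM in NC, at 26.2 and 28.0 CPM with siFAT1-1 and at 44.8 and 34.3 CPM with siFAT1-2. Only the siFAT1-1 libraries of HN30 stood apart from NC of their line. GCLC had the estimate nearest to 0 for KD against NC, -0.04 ± 0.17 (95% interval -0.41 to 0.33).

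GCLM in HN6 was at 80.2 and 56.8 CPM in NC, at 69.6 and 77.3 CPM with siFAT1-1 and at 52.7 and 87.9 CPM with siFAT1-2. HN30 cells had 46.0 and 48.2 CPM in NC, at 39.7 and 45.6 CPM with siFAT1-1 and at 35.1 and 36.8 CPM with siFAT1-2. The HN6 groups overlapped, and in HN30 all 4 KD libraries were below both NC libraries. How many of all genes were so placed in HN30 alone was not counted. KD against NC gave -0.10 ± 0.17, with a 95% interval of -0.47 to 0.27.

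SLC7A11, the cystine importer that feeds glutathione synthesis, varied most. In HN6 it was at 45.2 and 11.3 CPM in NC, at 29.4 and 31.0 CPM with siFAT1-1 and at 4.02 and 35.2 CPM with siFAT1-2. In HN30 it was at 19.7 and 63.9 CPM in NC, at 29.96 and 53.3 CPM with siFAT1-1 and at 13.2 and 17.2 CPM with siFAT1-2. The repeats differed 4.01-fold in HN6 NC, 8.76-fold in HN6 siFAT1-2 and 3.25-fold in HN30 NC, and only the siFAT1-2 libraries of HN30 lay apart from NC. The 95% interval for KD against NC ran from -1.56 to 0.81 on the log2 scale around -0.37, so a change of moderate size was not detectable with these repeats, and without HN30 NC repeat 2 the estimate was 0.07.

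TXNRD1 encodes the cytosolic reductase that keeps thioredoxin reduced. In HN6 it was at 1246 and 1171 CPM in NC, at 1251 and 1316 CPM with siFAT1-1 and at 627 and 1045 CPM with siFAT1-2. HN30 cells held it at 447 and 590 CPM in NC, at 566 and 600 CPM with siFAT1-1 and at 406 and 418 CPM with siFAT1-2. In both lines every siFAT1-2 library lay below all NC and siFAT1-1 libraries. KD against NC as a whole gave -0.13 ± 0.20 (adjusted p = 0.804).

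SRXN1, sulfiredoxin, restores overoxidized peroxiredoxins. In HN6 it was at 118 and 155 CPM in NC, at 179 and 125 CPM with siFAT1-1 and at 47.6 and 78.5 CPM with siFAT1-2. The HN30 libraries stood at 192 and 168 CPM in NC, at 160 and 181 CPM with siFAT1-1 and at 156 and 136 CPM with siFAT1-2. The siFAT1-2 libraries were again the lowest in each line, and KD against NC gave -0.27 ± 0.27 (adjusted p = 0.674).

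NQO1 reduces quinones and is a widely used readout of NRF2 activity. In HN6 it was at 475 and 502 CPM in NC, at 396 and 370 CPM with siFAT1-1 and at 184 and 296 CPM with siFAT1-2. The HN30 libraries had it at 244 and 185 CPM in NC, at 232 and 225 CPM with siFAT1-1 and at 94.1 and 130 CPM with siFAT1-2. The siFAT1-2 libraries lay below all others of their line, while the siFAT1-1 libraries were below NC in HN6 and between the NC libraries in HN30. KD against NC gave -0.49 ± 0.26 (adjusted p = 0.395).

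HMOX1, haem oxygenase 1, breaks haem down to biliverdin, iron and carbon monoxide. In HN6 it was at 63.9 and 28.3 CPM in NC, at 25.2 and 20.6 CPM with siFAT1-1 and at 18.7 and 6.41 CPM with siFAT1-2. HN30 showed 19.0 and 16.5 CPM in NC, at 15.8 and 17.3 CPM with siFAT1-1 and at 15.4 and 6.00 CPM with siFAT1-2. All 4 KD libraries of HN6 were below both NC libraries, whereas in HN30 the siFAT1-1 libraries overlapped NC. KD against NC gave -0.91 ± 0.38 (edgeR adjusted p = 0.296).

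**Figure D2:**
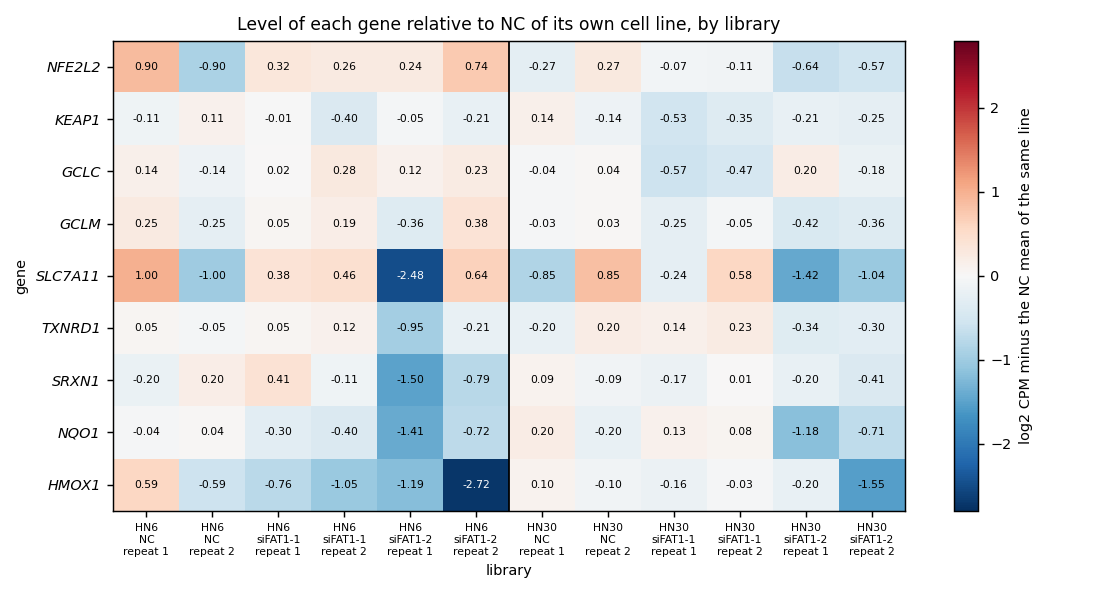
Log2 CPM minus the mean log2 CPM of the NC libraries of the same cell line (colour and printed value) for the 9 genes (vertical axis) in the 12 libraries (horizontal axis). NQO1, TXNRD1, SRXN1 and HMOX1 were below 0 in all 4 siFAT1-2 libraries, and SLC7A11 fell to -2.48 in repeat 1 of HN6 siFAT1-2 but stood at 0.64 in repeat 2.

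The siRNAs were then compared with NC in a single fit with cell line as a term. They share the NC libraries, so their values are given side by side. With siFAT1-1, 0 of 9 members passed an adjusted p under 0.05 in edgeR, beside 3.25% of all genes, and limma-voom and DESeq2 also called 0. At an unadjusted P under 0.05, 1 of 9 was lower with siFAT1-1, KEAP1, beside 10.2% of all genes. With siFAT1-2, 1 of 9 was called lower, NQO1, beside 7.47% of all genes. NQO1 fell by 0.98 ± 0.18 on the log2 scale (95% interval -1.38 to -0.59, adjusted p = 0.00782), to a mean of 49.1% of NC in HN6 and 52.2% in HN30. With siFAT1-1 the NQO1 estimate was -0.13 ± 0.18 (adjusted p = 0.748), with means of 78.4% and 107% of NC.

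Without the siFAT1-1 libraries in the fit the NQO1 estimate was -0.93 and its adjusted p 0.0711, a fit in which 61 genes in all were called in place of 1641. NQO1 passed the threshold in the other 18 of 19 alternatives, among them all 12 that left out a library.

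At an unadjusted P under 0.05, 4 of 9 members were lower with siFAT1-2, beside 16.0% of all genes. They were NQO1, HMOX1 (-1.33 ± 0.41, adjusted p = 0.0565), SRXN1 (-0.68 ± 0.24, adjusted p = 0.0882) and TXNRD1 (-0.43 ± 0.16, adjusted p = 0.102). The same 4 genes had every siFAT1-2 library below both NC libraries of its line, as 12.9% of all genes had. The replicate block, which compares libraries of the same repeat within a line, called HMOX1 as well (-1.40, adjusted p = 0.0261), as did the fit without HN30 siFAT1-2 repeat 1 (-1.72, adjusted p = 0.0343). SLC7A11 gave -0.97 ± 0.61 with a 95% interval of -2.29 to 0.34. The remaining 4 estimates lay between -0.19 for KEAP1 and 0.09 for GCLC.

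**Figure D3:**
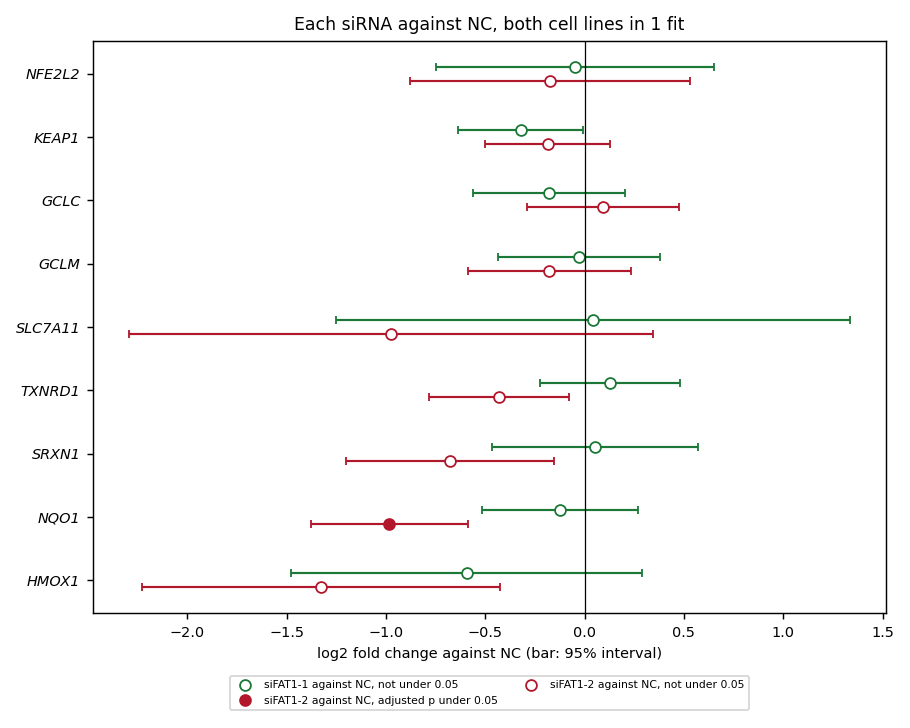
Log2 fold change against NC (horizontal axis) of the 9 genes (vertical axis) for siFAT1-1 (green) and siFAT1-2 (red), with 95% intervals as bars and filled points for an adjusted p under 0.05. Only NQO1 with siFAT1-2 is filled, at -0.98, and the intervals of SLC7A11 are the widest.

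The difference between the siRNAs was tested directly. NQO1 and TXNRD1 were higher with siFAT1-1 than with siFAT1-2, so 2 of 9 members were called higher, beside 10% of all genes. NQO1 differed by 0.86 ± 0.18 on the log2 scale, 1.81-fold (adjusted p = 0.00916), and passed in all 19 alternatives. TXNRD1 differed by 0.56 ± 0.16, 1.47-fold (adjusted p = 0.0346). In edgeR SRXN1 missed the threshold (0.73 ± 0.24, adjusted p = 0.0565), as did SLC7A11 (1.01 ± 0.61, adjusted p = 0.260) and HMOX1 (0.73 ± 0.41, adjusted p = 0.224). With no library left out, SRXN1 was called by the DESeq2 Wald test (0.74, adjusted p = 0.028) and by limma-voom (0.75, adjusted p = 0.0455). NQO1, TXNRD1, SRXN1 and HMOX1 had every siFAT1-1 library above both siFAT1-2 libraries of its line, as 18.2% of all genes had. For the other members the 95% intervals of the difference were -0.58 to 0.83 for NFE2L2, -0.45 to 0.18 for KEAP1, -0.26 to 0.56 for GCLM and -0.65 to 0.11 for GCLC.

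The TXNRD1 call was lost, at estimates of 0.42 to 0.58 and adjusted p of 0.0559 to 0.0998, when any KD library other than HN6 siFAT1-2 repeat 2 was left out. SRXN1 was called without HN6 NC repeat 2 (0.71, adjusted p = 0.0459) or HN30 siFAT1-2 repeat 1 (0.88, adjusted p = 0.0489), and SLC7A11 without HN6 siFAT1-2 repeat 2 (1.92, adjusted p = 0.0389). More FAT1 mRNA remained with siFAT1-2 than with siFAT1-1 in both lines, by the values above. In the study's blots, FAT1 protein relative to actin was lower with siFAT1-2 than with siFAT1-1 in both HN6 repeats. The HN30 repeats went in opposite directions. The part of FAT1 mRNA or protein in the differences between the siRNAs was not tested.

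Within each line, KD was compared with NC over 6 libraries. In HN6, edgeR called 0 members and 0 genes in all. At an unadjusted P under 0.05, 1 of 9 was lower, HMOX1, beside 2.43% of all genes, and its estimate was -1.37 ± 0.52 (adjusted p = 0.814). In HN30, edgeR also called 0 members and 0 genes, and 0 of 9 were lower at an unadjusted P under 0.05, beside 4.99% of all genes. limma-voom called 0 members in either line, and so did DESeq2, which called 68 genes in all in HN6 and 201 in HN30. In HN6, NQO1 gave -0.62 ± 0.31 and in HN30 -0.34 ± 0.38.

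The interaction of cell line and KD called 0 members and 0 genes in edgeR, limma-voom and DESeq2, and 0 of 9 at an unadjusted P under 0.05, beside 2.15% of all genes. The interval of the difference, HN30 minus HN6, ran from -0.64 to 2.64 for HMOX1, from -2.90 to 2.15 for SLC7A11 and from -0.85 to 1.48 for NQO1, so large differences between the lines were not detectable here.

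The lines were then compared. With siRNA as a term, 5 of 9 members were lower and 2 higher in HN30 than in HN6, beside 28.8% and 28.2% of all genes. TXNRD1 was at 406 to 600 CPM in HN30 and 627 to 1316 CPM in HN6, without overlap (log2 fold change -1.13 ± 0.13, adjusted p = 2.22e-05). GCLC was at 26.2 to 44.8 CPM in HN30 and 59.1 to 78.8 CPM in HN6, again without overlap (-1.02 ± 0.15, adjusted p = 9.35e-05). GCLM was at 35.1 to 48.2 CPM in HN30 and 52.7 to 87.9 CPM in HN6, also without overlap (-0.76 ± 0.15, adjusted p = 0.00118). These 3 genes were the members with all 6 libraries of a line on the same side of the other, as 26.0% of all genes were.

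NQO1 was at 94.1 to 244 CPM in HN30 and 184 to 502 CPM in HN6, where the siFAT1-2 library of repeat 1 in HN6 fell within the HN30 range (-1.01 ± 0.15, adjusted p = 0.000121). NFE2L2 itself was lower in HN30 (-0.70 ± 0.27, adjusted p = 0.0396), with ranges that overlapped. KEAP1, at 75.3 to 119 CPM in HN30 and 56.5 to 80.6 CPM in HN6, was higher in HN30 (0.42 ± 0.12, adjusted p = 0.00871). SRXN1 was also higher in HN30 (0.59 ± 0.20, adjusted p = 0.0230), with 136 to 192 CPM against 47.6 to 179 CPM. SLC7A11 (0.23 ± 0.49) and HMOX1 (-0.69 ± 0.33, adjusted p = 0.0956) did not pass the test.

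In the 4 NC libraries alone edgeR called 0 members, where 653 of 12163 genes were called. Of the 9 members 4 had an unadjusted P under 0.05 there, as 3693 of the 12163 genes had. The adjusted p was 0.0587 for NQO1 and 0.0616 for TXNRD1, with estimates of -1.18 and -1.21. The NFE2L2 call was lost with limma-voom (-0.61, adjusted p = 0.0797), in the replicate block (-0.69, adjusted p = 0.0524) and without any library other than HN6 NC repeat 2 and HN30 NC repeat 2 (-0.74 to -0.52, adjusted p = 0.0523 to 0.134). SRXN1 was lost without HN6 siFAT1-1 repeat 2 (0.56, adjusted p = 0.0509), while HMOX1 was gained without HN6 siFAT1-2 repeat 2 (-0.89) or HN30 siFAT1-2 repeat 1 (-0.96), both at an adjusted p of 0.0223.

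**Figure D4:**
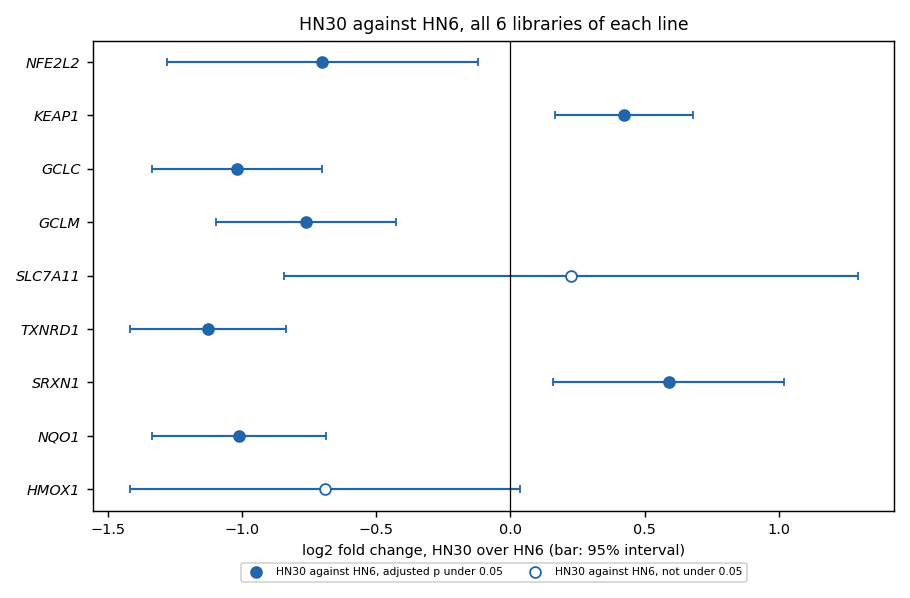
Log2 fold change of HN30 over HN6 (horizontal axis) for the 9 genes (vertical axis), with 95% intervals as bars and filled points for an adjusted p under 0.05. GCLC, NQO1 and TXNRD1 lie at or below -1, KEAP1 and SRXN1 lie above 0, and HMOX1 and SLC7A11 are open.

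How far the targets moved together was described with log2 CPM centred within each line over the 12 libraries. The points share their libraries and siRNA groups, so no test was made. TXNRD1 (r = 0.91), SLC7A11 (0.85), NQO1 (0.82) and SRXN1 (0.78) were closest to the mean of the 7 targets to which they contribute, and GCLC (-0.15) was farthest. NFE2L2 had an r of 0.36 and KEAP1 of -0.05 with that mean. The mean of the targets was lowest in HN6 siFAT1-2 repeat 1, at -0.83, against -0.44 to 0.53 in the other libraries. The weight of this library in the r values was not tested. Among the 36 pairs of members r ran from -0.53 for NQO1 with GCLC to 0.88 for GCLM with SLC7A11, with a median of 0.20. NFE2L2 was closest to GCLM (0.73) and SLC7A11 (0.63). Among genes outside the lists, the profile was most like that of SLC39A8 (0.94), CLCN5 (0.94), ETV6 (0.93), HOXC4 (0.93) and VDR (0.93).

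The other genes of the NRF2 pathway were taken as 51 symbols in 7 lists, all of them in the table and 49 of them tested. For KD against NC over both lines, 1 was higher and 0 were lower at an adjusted p under 0.05, beside 0.295% and 0.252% of all genes, with a median log2 fold change of -0.11 beside 0.02 for all genes. The gene that rose was ME1, the cytosolic malic enzyme that yields NADPH (0.92 ± 0.14, adjusted p = 0.0130). In HN6, ME1 was at 39.2 and 48.3 CPM in NC and from 65.7 to 82.8 CPM with KD. In HN30 it was at 29.8 and 30.4 CPM in NC and from 59.7 to 67.0 CPM with KD. Every KD library thus lay above both NC libraries of its line, as for 2.29% of all genes. The ME1 call over both lines was lost, leaving 0 pathway genes called, without HN6 NC repeat 1 (0.89, adjusted p = 0.0749), HN30 NC repeat 1 (0.89, adjusted p = 0.0887) or HN30 NC repeat 2 (0.88, adjusted p = 0.0628), and with no cell line term (0.90, adjusted p = 0.157). GSS, glutathione synthetase, had an unadjusted P under 0.05 (-0.49 ± 0.17, adjusted p = 0.205 in edgeR). Of 11 ATF4 stress targets, a list for comparison with a median of 0.08, 0 were called, and ATF3 alone had an unadjusted P under 0.05 (1.14 ± 0.37, edgeR adjusted p = 0.181). Of 11 other antioxidant enzymes, also for comparison, 0 were called, 0 had an unadjusted P under 0.05 in edgeR, and the median was -0.27.

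With siFAT1-1, ME1 was again the gene called higher and 0 of 49 were lower, beside 1.16% and 2.09% of all genes, with a median of -0.02. With siFAT1-2, 11 of 49 were called lower and 1 higher, beside 7.47% and 4.35% of all genes, with a median of -0.17. Of the 11 regulators of NRF2 1 was lower. Of 9 glutathione genes 2 were lower, of 3 thioredoxin and peroxiredoxin genes 0 were called or had an unadjusted P under 0.05, of 11 quinone, carbonyl and xenobiotic enzymes 2 were lower, of 5 NADPH genes 3 were lower and ME1 higher, of 5 haem and iron genes likewise 0, and of 5 other NRF2 targets 3 were lower. All 4 siFAT1-2 libraries were below both NC libraries of their line for 13 of the 49, beside 12.9% of all genes. In the lists for comparison, ATF3 was called higher (1.39 ± 0.38) and TXNRD2, the mitochondrial thioredoxin reductase, lower (-0.77 ± 0.18). Of the 11 other antioxidant enzymes 8 were below 0, with a median of -0.36, farther from 0 than that of the pathway genes. At an unadjusted P under 0.05 in edgeR, 4 of them were lower and 1 higher, beside 16.0% and 12.9% of all genes. The ATF4 stress targets had a median of 0.07.

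The genes that follow were named after their values were seen, as was TXNRD2. BTRC, a ubiquitin ligase adaptor that also targets NRF2, was the regulator (-0.47 ± 0.14). PGD and TALDO1 are enzymes of the pentose phosphate pathway, the chief source of NADPH for thioredoxin and glutathione reduction. PGD was at a mean of 334 CPM in HN6 NC and 149 CPM with siFAT1-2, and at 238 and 142 CPM in HN30 (-0.95 ± 0.17, adjusted p = 0.00762). TALDO1 gave -0.54 ± 0.14. GSS (-0.74 ± 0.14) and ABCC3, an exporter of conjugated compounds (-1.27 ± 0.28), were the glutathione genes. CBR3, a carbonyl reductase, went from a mean of 13.3 to 5.87 CPM in HN6 and from 13.8 to 3.46 CPM in HN30 (-1.57 ± 0.32, adjusted p = 0.0118), and CYP4F11 gave -1.57 ± 0.33. OSGIN1 (-0.98 ± 0.19), TRIM16 (-0.80 ± 0.17) and TRIM16L (-0.92 ± 0.24) were the other targets, of which TRIM16 and TRIM16L are near-identical copies whose reads may have been shared. Without the siFAT1-1 libraries in the fit 0 of 48 pathway genes tested were called in either direction, and leaving out 1 library at a time gave 8 to 11 lower.

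**Figure D5:**
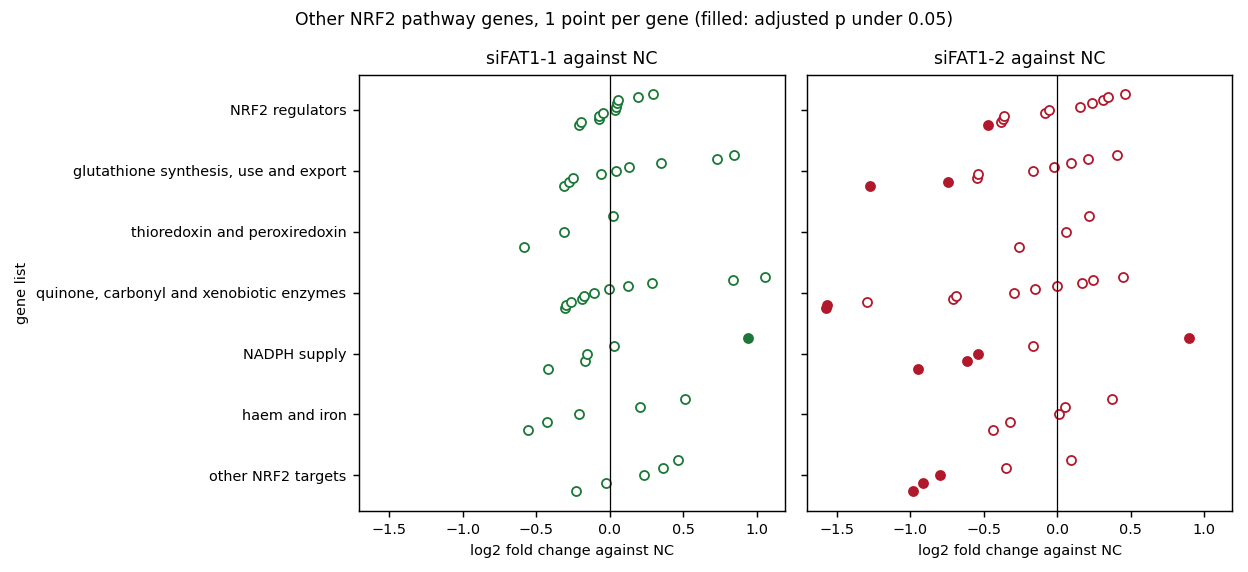
Log2 fold change against NC (horizontal axes) for the tested genes of the 7 pathway lists (vertical axis), with siFAT1-1 on the left and siFAT1-2 on the right, 1 point per gene and filled points for an adjusted p under 0.05. With siFAT1-1 only ME1 is filled, and with siFAT1-2 11 genes are filled below 0 and ME1 above it.

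Between the siRNAs, 12 of the 49 were higher with siFAT1-1 than with siFAT1-2 and 1 was lower, beside 10% and 7.39% of all genes, with a median of 0.21 beside -0.02 for all genes. The gene that was lower, also named after its values were seen, was PRDX1, the abundant cytosolic peroxiredoxin (-0.80 ± 0.15, adjusted p = 0.00535). All 4 siFAT1-1 libraries were above both siFAT1-2 libraries of their line for 17 of the 49, beside 18.2% of all genes. The count of 12 was 7 without any 1 of HN6 siFAT1-1 repeat 1, HN6 siFAT1-1 repeat 2, HN6 siFAT1-2 repeat 1, HN30 siFAT1-1 repeat 1, HN30 siFAT1-1 repeat 2 and HN30 siFAT1-2 repeat 1.

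Between the lines, 27 of the 49 pathway genes were lower in HN30 and 5 higher, beside 28.8% and 28.2% of all genes, with a median of -0.53 beside -0.00 for all genes. The genes that differed most were AKR1C1 (-4.66 ± 0.45, adjusted p = 4.38e-06), with a mean of 32.4 CPM in HN6 NC and 0.699 CPM in HN30 NC, AKR1C2 (-4.21 ± 0.85, adjusted p = 0.00117) and ALDH3A1 (-3.84 ± 0.47, adjusted p = 2.73e-05). AKR1C1 and AKR1C2, aldo-keto reductases, are near-identical copies and their separate levels are uncertain. The counts of AKR1C2 were near the floor, with a mean of 1.24 CPM in HN6 NC and 0.0504 CPM in HN30 NC. ALDH3A1, an aldehyde dehydrogenase, was at a mean of 2.03 CPM in HN6 NC and 0.198 CPM in HN30 NC. Lower levels in HN30 were not particular to the pathway lists. Of the 11 ATF4 stress targets, for comparison, 6 were called lower and 0 higher, with a median of -0.83. Of the 11 other antioxidant enzymes 5 were called lower and 2 higher, with a median of -0.21. PRDX2 of that list, named after its values were seen, was far higher in HN30. Its mean was 0.274 CPM in HN6 NC, near the floor, and 228 CPM in HN30 NC.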

How the data were processed

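The deposited file held whole-number counts per gene for 12 libraries, made by the authors without normalization from paired NovaSeq reads of poly(A) RNA after removal of PCR duplicates and low-quality reads; the submitters' processing notes name HISAT2, featureCounts and hg38, while versions, annotation and strand setting are not given in the sources used here, so overlapping genes and near-identical copies are uncertain. No column of per-sample values was left out. Counts were tested with edgeR 4.0.16 (TMM, filterByExpr with a minimum count of 10, glmQLFTest, Benjamini-Hochberg) in R 4.3.3, with a prior count of 0.125 for fold changes and 2 for log2 CPM. limma 3.58.1 and DESeq2 1.42.0 served as alternatives, and Python 3.11.15, numpy 2.4.6, pandas 2.3.3 and matplotlib 3.10.9 for summaries.

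A gene was called at an adjusted p under 0.05. SE is the log2 fold change divided by the root of F. The members, pathway lists and rules were chosen with earlier results of these data known. The rule for named genes took all members, FAT1, list genes with an unadjusted P under 0.05 for KD against NC, the 3 pathway genes that differed most between lines, and the 5 genes of most like profile; other list genes were named after their values were seen. Single values of some listed genes are not reported here.

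The fits were tested on simulated data with known changes in 200 genes, where the other levels did not differ between the lines. Every planted change was larger than any member estimate for KD against NC and lay in a gene above a low mean level. For KD it was the same in both lines and with both siRNAs. Recovery of smaller changes was not tested. edgeR recovered 78% of the changes for KD, 52% for siFAT1-2, 56.5% between the siRNAs and 73.5% between the lines. It made 4 to 6 false calls. limma-voom recovered 52% to 75.5% with 4 to 9 false calls, and DESeq2 74.5% to 89.5% with 30 to 45. The labels number the repeats as times and do not state that libraries of the same number within a line were handled together. Same-repeat deviations correlated across genes at -0.0337 to 0.405, so a replicate block was also fitted. The 2 repeats per condition limited the precision.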

Additional observations from a re-analysis of the deposited data

Results flagged for a closer look

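For NFE2L2, all 4 KD libraries of HN6 were above the mean log2 CPM of HN6 NC and all 4 of HN30 below that of HN30 NC, while KD against NC passed the test in neither line (0.17 ± 0.45 in HN6 and -0.35 ± 0.26 in HN30). The mean gap between the lines was 0.737 on the log2 scale, and the interaction in edgeR missed the threshold (-0.49 ± 0.56, adjusted p = 1.00). The HN6 NC mean lies between libraries that differ 3.46-fold.

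The effects of the siRNAs differed by a direct test for NQO1, by 0.857 on the log2 scale, and for TXNRD1, by 0.559, siFAT1-1 minus siFAT1-2 (edgeR adjusted p = 0.00916 and 0.0346).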

How the results depend on the processing

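The 0 members called for KD against NC over both lines, for siFAT1-1, within either line and for the interaction stayed at 0 in every alternative run. For siFAT1-2 the count of 1 became 2 with DESeq2, limma-voom, no low-count filter and the replicate block, and 0 with only the 2 groups compared, and it ran from 1 to 2 with 1 library left out. Between the siRNAs the count of 2 became 3 with DESeq2 and limma-voom, which also called SRXN1, and ran from 1 to 3 with 1 library left out. Between the lines the count of 7 became 0 in the NC libraries alone. Estimates for KD against NC that changed sign, none of them called, were NFE2L2 with limma-voom (0.0392) and without a library (lowest -0.41, highest 0.15), GCLC with no cell line term (0.0279) and without a library (lowest -0.14, with 0.00738, 0.00982, 0.0233 and 0.0273 above 0), and SLC7A11 without a library (lowest -0.68, highest 0.0654 without HN30 NC repeat 2); NFE2L2 was 0.0696 without HN30 NC repeat 2. HMOX1 ran from -1.08 to -0.51 and NQO1 from -0.60 to -0.40 over 19 alternatives. The paired fit with the replicate block called 0 members for KD against NC, 2 for siFAT1-2 (NQO1 and HMOX1), 2 between the siRNAs and 6 between the lines (NFE2L2 lost), and changed no other call of a member. Of all genes, 76 were called for KD against NC, 640 with DESeq2, 44 in the replicate block, 4 with no cell line term and 12 to 61 with 1 library left out, and for siFAT1-2 1641, 2700 with DESeq2 and 693 to 1680 with 1 library left out. The causes were not tested. With 2 repeats a group, SLC7A11, NFE2L2 and HMOX1 were the least precise members.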
